A study of Mus musculus with 26 samples.

Results

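The change that adoptive T cell transfer had brought about in HCmel3 mouse melanomas early during treatment (EDT minus NT) was set against the change found in melanomas that had relapsed after it (relapse minus ctrl), over all 26 of the 26 tumours in the series. The 8 EDT tumours were taken between day 12 and day 20 after the start of the transfer and were compared with 8 non-treated (NT) tumours. The 5 relapse tumours, for which the labels give no day, were compared with 5 further non-treated tumours labelled ctrl. Every tumour grew in C57BL6 mice and was frozen in liquid nitrogen, and 100 ng of its total RNA was hybridised to an Illumina Mouse WG6 v2.0 BeadChip. HCmel3 is a transplantable melanoma line from mice that overexpress hepatocyte growth factor and carry a mutant CDK4. The treatment joined a single injection of cyclophosphamide, a cytotoxic drug that depletes lymphocytes, with CD8+ T cells that carry the transgenic pmel-1 T cell receptor, an adenoviral vaccine and the innate stimuli CpG and polyI:C. The pmel-1 receptor and the vaccine are both aimed at gp100, the melanosome protein encoded by Pmel. These components were given together and cannot be told apart in the EDT or the relapse group. The NT and EDT arrays form one deposited table and the ctrl and relapse arrays another, so each effect was taken within its own table and no level was compared between the tables.

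CD8+ T cells that meet their antigen release interferon gamma, a cytokine that switches on genes for antigen presentation, chemokines and cell-autonomous defence. Melanoma cells can lower their pigment cell programme, which the transcription factor MITF drives, and take on a neural crest-like state, and inflammation is known to favour this switch. Melanocytic proteins such as gp100 are then presented less. A gene was called transient when it changed early, was not called at relapse, and the 2 effects differed by their own test; it was called late in the mirror case. It was called persistent when it changed in both comparisons in the same direction, and opposite when it changed in both in opposite directions. Every call was an adjusted p below 0.05 in limma (moderated linear models, Benjamini-Hochberg over all genes). A gene called in 1 comparison whose 2 effects did not differ by that test was left undecided.

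Of 9553 genes tested, 1385 (14.5%) were higher and 1446 (15.1%) lower in EDT than in NT, and 1270 (13.3%) were higher and 1674 (17.5%) lower in relapse than in ctrl. The 2 effects themselves differed for 1582 genes, with the early effect above the relapse effect for 932 (9.76%) and below it for 650 (6.8%). On simulated data this test made more false calls than its threshold allows, and fewer when each table kept its own spread; in that setting 1143 genes differed, 207 were transient and 693 late. The transient class held 179 genes that rose early (1.87%) and 104 that fell (1.09%). The persistent class held 610 genes higher (6.39%) and 634 lower (6.64%) in both comparisons. The late class held 363 genes higher (3.8%) and 518 lower (5.42%) at relapse. The opposite class was the smallest of the 4, with 28 genes that rose early and fell at relapse (0.293%) and 29 that did the reverse (0.304%). Of the 1530 genes called only early, 283 (18.5%) met the test of a difference, whereas 881 of the 1643 genes called only at relapse (53.6%) met it. The median standard error of an effect was 0.17 early and 0.26 at relapse on the log2 scale. Without relapse 3, 2497 genes differed between the effects, 1478 were late and 97 opposite. Without relapse 4, 584 were late and 31 opposite, and without relapse 5, 1035 differed, 520 were late and 27 opposite. The opposite class also fell to 35 without EDT 4, 32 without ctrl 1 and 34 without ctrl 4.

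These names compare different tumours and do not follow 1 tumour over time. The higher genes of the persistent class had a median log2 effect of 1.49 early and 1.66 at relapse, and its lower genes of −0.74 early and −1.24 at relapse. Transient genes that rose had a median of 0.90 early and −0.27 at relapse. Late genes had medians near 0 early (−0.02 for those that rose, −0.08 for those that fell) and of 1.12 and −1.18 at relapse. Across the 9553 genes the early and relapse effects had a Pearson correlation of 0.62 and a Spearman correlation of 0.53, given as a description, since genes are not independent and each comparison has its own controls.

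**Figure D1:**
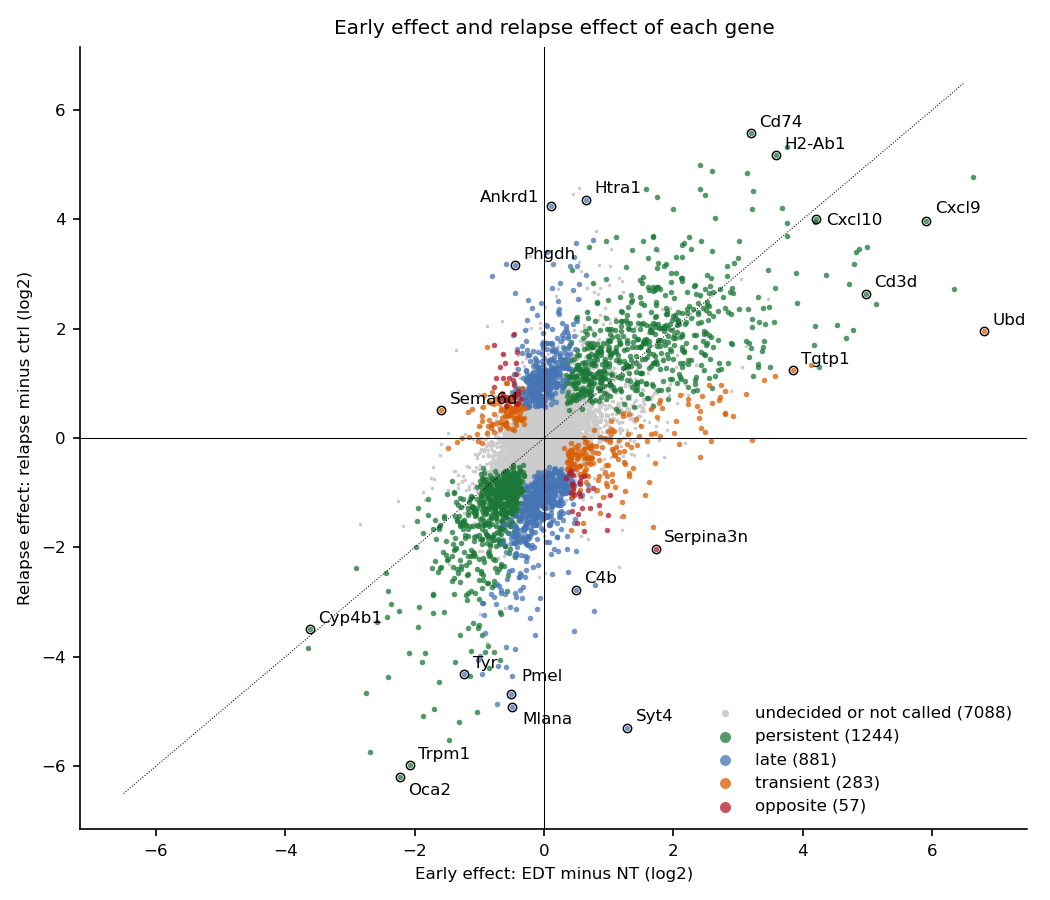
Early effect (EDT minus NT, x axis) against relapse effect (relapse minus ctrl, y axis), both as log2 fold changes, for the 9553 genes, coloured by class, with 20 genes labelled and a dotted line where the effects are equal. Ubd lies far to the right (6.81 early, 1.95 at relapse), Cxcl10 near the line (4.20 and 4.01), Ankrd1 near the top of the vertical axis (0.11 and 4.25), Oca2 at the bottom left (−2.23 and −6.19) and Serpina3n in the lower right part (1.73 and −2.02).

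Some tumours stood apart. Relapse 3 kept the most pigment cell RNA of the 5 relapses (melanocyte score −1.24, against −2.40 to −4.24 in the others; a score is the mean log2 signal of a list's tested genes minus the mean of the untreated tumours of the same table) and had the lowest score of the YAP and TEAD targets (−0.14, against 1.03 to 1.41). Ctrl 5 had more interferon-response RNA than the other controls, with Cxcl9 at 10.6 against 5.73 to 6.80. Relapse 1 to 3 were on a slide with ctrl 1 to 3, and relapse 4 and 5 on another with ctrl 4 and 5. In the first table only slide 5 held both groups (2 EDT and 3 NT tumours), so the other slides and the groups cannot be told apart there. Without relapse 3, 224 of the 283 transient, 1209 of the 1244 persistent, 857 of the 881 late and 52 of the 57 opposite genes had the same class. Centring each array on its median in place of quantile normalisation moved the median effect of all genes to 0.29 early and 0.30 at relapse, against −0.05 and −0.07, so effects were generally more positive. Under it 75 transient, 707 persistent, 303 late and 7 opposite genes had the same class, and with slide as a fixed block 71, 484, 406 and 15 did. The labels do not say whether tumours came from separate animals, so the p-values measure the spread among these samples.

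Ubd had the largest early effect of the transient genes, whereas of the 26 tested genes of the antiviral interferon list 3 were transient and 13 persistent. Ubd, which encodes the interferon-inducible ubiquitin-like protein FAT10, had log2 signals with a lowest, median and highest value of 10.30, 12.10 and 12.86 in EDT tumours, against 4.48, 5.0 and 5.72 in NT tumours. In relapses 1 to 5 it stood at 8.48, 6.19, 9.78, 5.37 and 4.92, against 4.90, 4.68, 4.62, 4.75 and 6.02 in ctrl 1 to 5. All EDT tumours were above all NT tumours, whereas relapse 4 and 5 lay within the range of the controls. The NT median of 5.0 was below the lowest detected signal of every NT array (5.32 to 5.84). Ctrl 1 to 4 were also below those of their own arrays (5.31, 5.16, 5.72 and 5.19). The folds of Ubd are thus taken from signals near background and are uncertain. The early effect of Ubd was 6.81 ± 0.34 (SE, 112-fold, adjusted p = 1.28e-09 by limma). The relapse effect was 1.95 ± 0.81 (adjusted p = 0.0862), and the effects of Ubd differed by 4.85 ± 0.83 (adjusted p = 0.00085). Under median centring its relapse effect of 2.28 passed the test, which made Ubd persistent there. The relapse effect was 3.42 on slide 6 and −0.24 on slide 7.

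Tgtp1, an interferon-inducible GTPase that attacks the vacuoles of intracellular parasites, had the same shape. Its signals were 7.51, 8.83 and 9.39 (lowest, median, highest) in EDT tumours and 4.35, 4.82 and 5.23 in NT tumours. They were 7.24, 5.63, 6.79, 4.43 and 4.45 in relapses 1 to 5 and between 4.37 and 4.60 in ctrl tumours. Its probe was not above background on any NT or ctrl array, and such groups give only a bound: brighter over dimmer, with the dim group set to the higher of its own signal and the lowest detected signal of each array. Tgtp1 was at least 8.09-fold higher in EDT tumours (adjusted p = 1.88e-08 by limma) and at least 1.26-fold higher at relapse (adjusted p = 0.0792), and the 2 effects differed by 2.61 ± 0.54 (adjusted p = 0.00285). Gbp10, a guanylate-binding protein, was at least 7.01-fold higher in EDT tumours and was also transient, with 3 of 5 relapses and no ctrl tumour above background. Stat2, a subunit of the factor that type I interferons activate, averaged 8.02 ± 0.48 in EDT and 6.02 ± 0.54 in NT tumours (SD, n = 8 each), and 7.03 ± 1.04 in relapse and 6.94 ± 0.47 in ctrl tumours (SD, n = 5 each). Irf8, a transcription factor of myeloid cells that interferon gamma induces, had effects of 2.55 ± 0.26 early and 0.97 ± 0.36 at relapse (adjusted p of the difference 0.019 by limma). Irf8 was persistent under median centring and with the authors' own normalised values. Other large transient effects lay outside the interferon lists. Il7r, the receptor chain for interleukin 7, had effects of 2.40 ± 0.35 and −0.35 ± 0.55, and all EDT tumours (9.11 to 10.38) were above all NT tumours (5.44 to 8.76). Npy, a neuropeptide, had 1.69 ± 0.43 and −1.63 ± 0.63 and was opposite with the authors' values, and Mmp12, a macrophage elastase, had 1.22 ± 0.35 and −1.43 ± 0.73.

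The promoters of these genes were read from RefSeq (GRCm38.p6) to show the letters on which interferon-activated factors are known to act. Capitals mark the core of the interferon-stimulated response element (ISRE; GAAA, 2 bases of any kind and GAAA again, searched on both strands), the gamma-activated sequence (GAS; TTCNNNGAA, its own reverse complement), the M-box core (CATGTG, or CACATG on the other strand) and the TEAD motif (GGAATG, or CATTCC on the other strand). The windows run from 250 bases before to 50 bases after the start of the gene on its own strand. Tgtp1 (transient; chr11:48992197-48992496, minus strand) holds an ISRE core with its first base 77 bases before the start, a GAS at 88 and an M-box core at 205 bases before it. Cxcl10 (persistent; chr5:92348840-92349139, minus strand) holds an ISRE core 213 bases before the start. Gbp2 (persistent; chr3:142620413-142620712, plus strand) holds an ISRE core 59 and a TEAD motif 120 bases before it.
Tgtp1: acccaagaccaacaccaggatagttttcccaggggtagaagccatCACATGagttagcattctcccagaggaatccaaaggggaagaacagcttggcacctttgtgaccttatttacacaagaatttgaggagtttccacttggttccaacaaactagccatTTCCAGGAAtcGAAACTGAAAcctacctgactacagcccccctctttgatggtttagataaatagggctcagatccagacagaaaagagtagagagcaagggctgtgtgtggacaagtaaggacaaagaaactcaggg
Cxcl10: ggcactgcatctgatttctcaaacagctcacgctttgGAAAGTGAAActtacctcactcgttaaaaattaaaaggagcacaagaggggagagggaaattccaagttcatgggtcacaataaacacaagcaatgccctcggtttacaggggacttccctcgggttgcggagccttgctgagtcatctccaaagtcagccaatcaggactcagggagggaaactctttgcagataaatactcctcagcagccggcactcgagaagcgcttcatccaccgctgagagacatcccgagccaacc
Gbp2: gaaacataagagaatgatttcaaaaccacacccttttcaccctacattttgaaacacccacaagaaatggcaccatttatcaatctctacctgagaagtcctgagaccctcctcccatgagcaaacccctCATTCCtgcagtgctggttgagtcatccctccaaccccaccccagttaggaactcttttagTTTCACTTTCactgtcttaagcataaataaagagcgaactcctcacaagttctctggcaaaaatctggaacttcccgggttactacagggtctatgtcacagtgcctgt
The ISRE core was in 3.44% of all 32851 RefSeq promoters of this length and the GAS in 8.3%. Among the 7768 tested genes with a promoter in the table, 3.9% had an ISRE core and 8.51% a GAS. An ISRE core was found for 13 of 142 transient genes that rose (9.15%), 51 of 473 persistent genes that rose (10.78%), 10 of 298 late genes that rose (3.36%) and 9 of 510 persistent genes that fell (1.76%). A GAS was found for 16.2% of the transient and 14.38% of the persistent genes that rose. The window of Ubd holds none of the 4 motifs, which says nothing about other parts of the gene.

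The interferon-inducible GTPases, which include guanylate-binding and immunity-related GTPases, had a higher median effect early than at relapse. All 11 tested members of the 18 listed rose early (background 14.5%) and 7 rose at relapse (background 13.3%); 7 were persistent and 2 transient. Their median effect was 3.41 early and 1.90 at relapse, against −0.05 and −0.07 for all genes. The relapse median was 2.93 on slide 6 and 0.78 on slide 7, and the early median on slide 5 was 3.95. The mean of the 11 genes stood 3.0, 2.33, 3.22, 1.06 and 0.34 above the ctrl mean in relapses 1 to 5, while ctrl 5 stood 0.82 above it. In EDT tumours the same mean ran from 2.46 to 4.08 above NT, so no EDT tumour was as low as relapse 4 or 5. An ISRE core was in 8 of the 9 members with a promoter and a GAS in 5.

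The chemokine Cxcl10, which draws CXCR3-bearing T cells, rose in both comparisons. Its signals were 9.16, 11.10 and 11.76 (lowest, median, highest) in EDT and 5.56, 6.49 and 7.51 in NT tumours. They were 10.66, 9.43, 11.48, 9.80 and 7.49 in relapses 1 to 5, against 5.30, 6.19, 5.92, 4.72 and 6.68 in ctrl 1 to 5. Neither pair of groups overlapped. The effects were 4.20 ± 0.39 early and 4.01 ± 0.64 at relapse, and their difference of 0.19 ± 0.74 did not pass the test (adjusted p = 0.889 by limma). Cxcl9, another CXCR3 ligand, rose by 5.91 ± 0.37 early and by 3.96 ± 1.08 at relapse, where only relapses 1 to 3 were above ctrl 5; on slide 7 its relapse effect was 0.52. Gbp2 rose by 3.89 ± 0.28 early and 3.01 ± 0.72 at relapse, with relapse effects of 4.50 on slide 6 and 0.78 on slide 7. Of the 26 tested genes of the antiviral interferon list, 24 rose early and 14 at relapse (background 14.5% and 13.3%), with medians of 1.85 and 1.70. The 3 transient members were Ubd, Stat2 and Irf8. On slide 7 the relapse median of this list was 0.44, against 2.25 on slide 6.

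Class I antigen presentation genes also rose in both comparisons, with a higher median early. The early effect was called above the relapse effect for 0 of the 19 tested genes and below it for 1. Of 19 tested genes, 18 rose early and 15 at relapse (background 14.5% and 13.3%), with medians of 2.45 and 1.74, and 14 were persistent (background 6.39%). Without relapse 3, 12 of the 19 rose at relapse, 11 were persistent and 3 transient. Psmb8, an interferon-inducible catalytic subunit of the immunoproteasome, averaged 13.06 ± 0.36 in EDT and 9.84 ± 0.50 in NT tumours, and 11.45 ± 1.31 in relapse and 7.25 ± 1.24 in ctrl tumours (SD, n = 8 and n = 5 per group), with effects of 3.22 and 4.20 and no overlap in either comparison. B2m, the invariant chain of class I molecules, was the exception: it was late, with effects of 0.28 ± 0.15 early and 1.36 ± 0.26 at relapse (adjusted p of the difference 0.0105 by limma), and persistent under median centring. Its signals, 14.25 to 14.86 in EDT and 13.85 to 14.82 in NT tumours, were near the highest signal of any tested gene in that table (15.1). Whether this limited its early effect was not tested.

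Genes of T cells and cytotoxic lymphocytes rose in both comparisons, and several rose less at relapse. Cd3d, a chain of the T cell receptor complex, had signals of 8.47, 10.18 and 11.95 (lowest, median, highest) in EDT and 4.62, 5.13 and 5.68 in NT tumours. In relapses 1 to 5 it stood at 8.22, 7.60, 8.11, 6.86 and 5.52, against 4.59, 4.34, 5.08, 4.56 and 4.53 in ctrl 1 to 5. The groups did not overlap in either comparison, and no NT or ctrl array detected the probe. Cd3d was at least 22.7-fold higher in EDT (adjusted p = 9.33e-08 by limma) and at least 3.7-fold higher in relapse tumours (adjusted p = 0.00182), and its effects of 4.98 and 2.64 differed by 2.34 ± 0.64 (adjusted p = 0.0148). Cd3e rose by 4.67 ± 0.39 early and 1.83 ± 0.38 at relapse, a difference of 2.84 ± 0.60 (adjusted p = 0.00307). Trbv13-2, a variable segment of the T cell receptor beta chain, had the largest early effect of the list (6.63 ± 0.43, 99.4-fold), with 4.78 ± 0.49 at relapse, where the 5 tumours stood at 10.72, 9.73, 9.90, 9.90 and 7.52, against 4.36 to 5.32 in ctrl tumours. These are whole tumour pieces, in which fewer cells of a type and less RNA per cell cannot be told apart.

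Of the 32 listed T cell genes, 23 were tested. All 23 rose early and 15 rose at relapse (background 14.5% and 13.3%), with medians of 2.48 and 1.14. Of these 23, 15 were persistent, 1 was transient and 7 were called only early with no called difference. A probe was tested only if at least 5 arrays of a group detected it. Genes not detected in untreated tumours could thus enter this or another immune list only through a group where they were high. The counts of rises in such lists are therefore partly set by the filter. The early effect was above the relapse effect for 7 of the 23 and below it for none, against 9.76% and 6.8% of all genes. The T cell score was 1.52 to 4.44 above NT in EDT tumours and 1.91, 1.81, 1.36, 1.44 and 0.75 above ctrl in relapses 1 to 5. Of 12 tested genes of cytotoxic and natural killer cells, 11 rose early and 6 at relapse (background 14.5% and 13.3%), with medians of 2.14 and 0.93. Ctsw, a cathepsin of cytotoxic cells, rose by 4.26 ± 0.41 early and 1.30 ± 0.39 at relapse. Nkg7, a protein of cytotoxic granules, rose by 4.53 ± 0.54 and 2.07 ± 0.50, and Klrd1, the CD94 receptor chain, by 4.19 ± 0.46 and 2.04 ± 0.38, each with a called difference. Xcl1, a chemokine for cross-presenting dendritic cells, was at least 13.5-fold higher in EDT and at least 2.24-fold higher in relapse tumours.

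Checkpoint genes divided between classes. Cd274, which encodes PD-L1, averaged 10.79 ± 0.90 in EDT and 7.42 ± 0.46 in NT tumours (SD, n = 8 each) and stood at 9.56, 8.46, 10.42, 8.71 and 7.97 in relapses 1 to 5, against 7.72, 6.99, 7.09, 7.52 and 7.82 in ctrl tumours. All relapses were above all ctrl tumours, relapse 5 by the least. Its effects of 3.37 ± 0.33 and 1.60 ± 0.41 differed by 1.77 ± 0.55 (adjusted p = 0.0282 by limma), which was not called under median centring (0.078). Lag3, an inhibitory receptor of activated T cells, was transient, with effects of 3.13 ± 0.32 and 0.80 ± 0.29. Its relapse effect passed the test under median centring and with the authors' values. Foxp3, the factor of regulatory T cells, was called in neither comparison alone, with effects of −0.35 ± 0.13 and 0.57 ± 0.21, although the 2 differed (adjusted p = 0.00982). Of the 14 tested checkpoint genes, 10 rose early and 8 rose at relapse (background 14.5% and 13.3%), with medians of 1.22 and 1.19. Of the 14, 7 were persistent (background 6.39%).

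All 11 tested class II genes and 23 of 34 macrophage and monocyte genes were higher in both comparisons. The effects differed for few of them: the relapse effect was larger for 1 of 11 and 2 of 34, and the early effect for 0 of 11 and 5 of 34, against 6.8% and 9.76% of all genes. Cd74, the invariant chain that chaperones class II molecules, had signals of 13.73, 14.23 and 14.58 (lowest, median, highest) in EDT and 8.70, 11.39 and 12.23 in NT tumours. It stood at 13.95, 14.28, 12.07, 14.25 and 12.87 in relapses 1 to 5, against 7.79, 8.66, 6.99, 7.91 and 8.19 in ctrl tumours. Neither pair of groups overlapped. The effects were 3.20 ± 0.37 early and 5.58 ± 0.45 at relapse, a difference of −2.37 ± 0.62 (adjusted p = 0.0114 by limma), which was not called with slide as a fixed block (early effect 4.07, adjusted p = 0.26). H2-Ab1, a class II beta chain, rose by 3.58 ± 0.37 and 5.18 ± 0.43, and its difference of −1.60 ± 0.61 did not pass (adjusted p = 0.0703). All 11 tested class II genes were persistent (background 6.39%), with medians of 2.76 early and 2.57 at relapse and a relapse score of 3.51, 3.56, 2.46, 3.91 and 2.83 in relapses 1 to 5.

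Relapses 4 and 5, which were low for the interferon-inducible GTPases, stood at 3.91 and 2.83 for class II genes, above relapse 3. Of the 34 tested macrophage and monocyte genes, 30 rose early and 24 at relapse (background 14.5% and 13.3%), with medians of 1.78 and 1.87. Of the 34, 23 were persistent (background 6.39%) and 4 transient (Lyz1, Mpeg1, Clec7a and Nos2, background 1.87%). C1qc, a chain of complement C1q made by macrophages, rose by 1.60 ± 0.22 early and 3.30 ± 0.44 at relapse (adjusted p of the difference 0.0155 by limma). Ccl12, a chemokine for monocytes in the acute inflammation list, rose by 1.75 ± 0.42 and 4.40 ± 0.50, and its relapses, from 11.11 to 12.58, were all above its ctrl tumours, from 5.59 to 8.43. Tgfbi, a matrix protein that TGF beta induces and a member of the dedifferentiation list, rose by 2.49 ± 0.31 and 4.44 ± 0.45 and was also larger at relapse. Acod1, which produces the immune metabolite itaconate, went the other way, with 5.12 ± 0.39 and 2.45 ± 0.55 (adjusted p of the difference 0.0113). Clec4d, a C-type lectin of neutrophils and monocytes, was transient under every scaling: its effects were 2.58 ± 0.33 and −0.05 ± 0.44, and relapses from 7.24 to 8.99 lay among ctrl tumours from 6.93 to 9.16. The neutrophil genes S100a8 and S100a9 were at 5.97 and 4.65 in relapse 1, against 12.65 or more and 10.73 or more in the other relapses, and neither was called at relapse. The neutrophil list had 14 tested genes, of which 8 rose early and 6 at relapse (background 14.5% and 13.3%). Its medians were 1.60 early and 1.78 at relapse, and 4 of its genes were persistent and 1 transient. Within the acute inflammation list, 17 of 19 genes rose early and 11 at relapse (background 14.5% and 13.3%), with medians of 1.75 and 1.73. Saa3, an acute-phase apolipoprotein, had effects of 3.21 ± 0.50 and −0.04 ± 1.0 and was transient, but undecided under median centring and when each table kept its own spread.

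**Figure D2:**
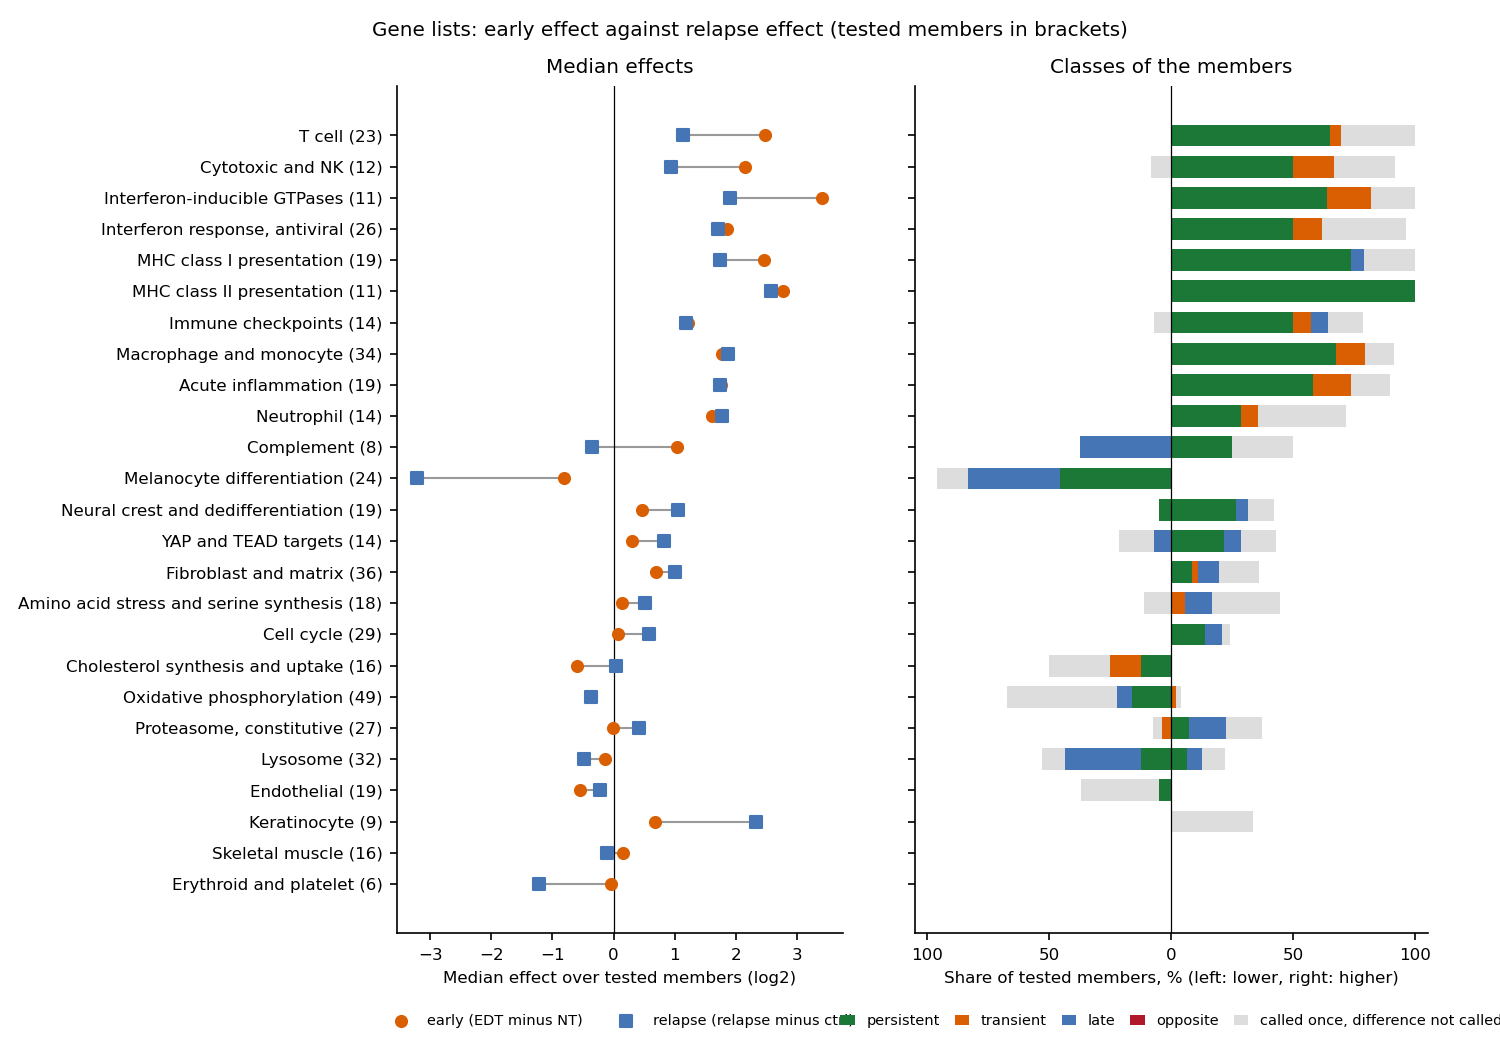
Left, median log2 effect over the tested genes of 25 gene lists, early as orange circles and at relapse as blue squares. Right, the share of each list's tested genes in the 4 classes, with genes that fell drawn to the left of 0 and genes that rose to the right. Class II genes are all persistent (11 of 11), T cell genes are persistent for 15 of 23, and melanocyte genes fall into persistent (11) and late (9) of 24.

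Fewer pigment cell genes fell early than at relapse (12 and 22 of 24 tested), and by less in the median. The melanosome protein Pmel, source of the gp100 that the transferred cells recognise, had signals of 12.84, 14.50 and 15.14 (lowest, median, highest) in EDT and 14.63, 14.85 and 15.14 in NT tumours. It stood at 12.86, 6.27, 13.95, 9.84 and 9.42 in relapses 1 to 5, against 15.14, 15.24, 15.24, 15.11 and 15.00 in ctrl tumours. The early groups overlapped, whereas every relapse was below every ctrl tumour, relapse 1 and 3 by the least. Its effects were −0.51 ± 0.26 (adjusted p = 0.141 by limma) and −4.68 ± 1.13 (adjusted p = 0.00985), a difference of 4.16 ± 1.02 (adjusted p = 0.00809), and Pmel was late. The highest signals of any tested gene were 15.1 in the first table and 15.4 in the second, so the NT and ctrl values of Pmel were near the highest. Whether a fall from such signals was understated was not tested. A second Pmel probe had effects of −1.09 and −3.78, and with the mean over probes Pmel, Tyrp1 and Rab38 were persistent. With slide as a fixed block the adjusted p of the difference was 0.062.

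Mlana, the melanosomal antigen MART-1, behaved alike, with effects of −0.49 ± 0.19 and −4.92 ± 0.90. Its relapses stood at 10.19, 7.26, 13.25, 8.32 and 8.32, against 14.85, 14.63, 13.92, 14.73 and 13.77 in ctrl tumours. Tyr, tyrosinase, the first enzyme of melanin synthesis, was not above background on any relapse array. It stood between 4.33 and 4.70 in relapses, against 9.54, 8.16, 6.27, 10.72 and 9.24 in ctrl tumours, and was at least 13-fold lower at relapse (adjusted p = 0.000897 by limma). Its early effect of −1.23 ± 0.52 did not pass (adjusted p = 0.082), and on slide 5 it was 0.48. Dct, dopachrome tautomerase, had effects of 0.10 ± 0.10 and −2.12 ± 0.62, and Tyrp1, its relative, of −0.43 ± 0.21 and −3.13 ± 0.93. Rab38, which carries these enzymes to the melanosome, had −0.73 ± 0.31 and −4.87 ± 0.78. Mitf itself fell by 3.41 on the log2 scale at relapse (SE 0.85), while its early effect of −1.03 ± 0.43 and the difference (adjusted p = 0.0743) did not pass.

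Oca2, a melanosomal anion transporter, and Trpm1, a melanocyte cation channel, fell in both comparisons. Oca2 had signals of 8.23, 10.05 and 11.92 (lowest, median, highest) in EDT and 11.71, 12.86 and 13.10 in NT tumours. It stood at 7.0, 4.66, 10.59, 5.92 and 5.24 in relapses 1 to 5, against 12.70 to 13.14 in ctrl tumours. Of 8 EDT tumours 6 were below all NT tumours, and all 5 relapses were below all ctrl tumours. The effects were −2.23 ± 0.44 and −6.19 ± 0.88, a difference of 3.97 ± 0.95 (adjusted p = 0.00727 by limma), and Trpm1 had −2.07 ± 0.58 and −5.98 ± 0.83. On slide 5 the early effects of Oca2 and Trpm1 were −1.33 and −0.55. Of the 24 tested melanocyte genes, 12 fell early (background 15.1%) and 22 at relapse (background 17.5%), none rose, 11 were persistent and 9 late. The median was −0.80 early and −3.21 at relapse, and the early effect was above the relapse effect for 16 genes. Under median centring 6 fell early and 19 at relapse, with medians of −0.42 and −2.93, and without relapse 3 the relapse median was −3.92. With the mean over probes 15 fell early and 22 at relapse, 14 were persistent and 6 late. Of the markers fixed for melanocytic tumour cells, Pmel, Mlana, Tyrp1, Dct and Sox10 were detected on all 26 arrays. The remaining markers, Tyr and Mitf, were not. Tyr was detected on 0 of 5 relapse arrays and Mitf on 7 of 8 EDT arrays, and both on every array of the other groups.

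The promoters of Oca2 (chr7:56239509-56239808, plus strand) and Tyr (chr7:87493463-87493762, minus strand) are shown for the M-box core that MITF is known to bind, 186 and 21 bases before the start, in GRCm38.p6.
Oca2: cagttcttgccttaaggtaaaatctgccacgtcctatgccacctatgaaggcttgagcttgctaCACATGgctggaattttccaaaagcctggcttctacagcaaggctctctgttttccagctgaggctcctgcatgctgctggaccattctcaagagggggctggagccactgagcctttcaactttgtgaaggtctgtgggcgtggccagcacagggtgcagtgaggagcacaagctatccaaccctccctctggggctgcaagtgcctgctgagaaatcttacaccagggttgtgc
Tyr: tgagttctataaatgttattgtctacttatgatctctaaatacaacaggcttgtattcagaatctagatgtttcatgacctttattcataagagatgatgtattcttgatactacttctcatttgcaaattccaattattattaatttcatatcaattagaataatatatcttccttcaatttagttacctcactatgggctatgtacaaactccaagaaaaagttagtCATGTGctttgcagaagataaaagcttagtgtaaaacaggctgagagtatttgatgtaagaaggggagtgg
The M-box core was in 14.15% of all RefSeq promoters of this length and for 10.36% of the tested genes. It was found for 8 of the 16 melanocyte genes with a promoter in the table (Tyr, Tyrp1, Dct, Oca2, Trpm1, Mc1r, Tspan10 and Cited1), which fell into both the persistent and the late class. Over the whole classes it was found for 13.73% of persistent genes that fell and 10.35% of late genes that fell.

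**Figure D3:**
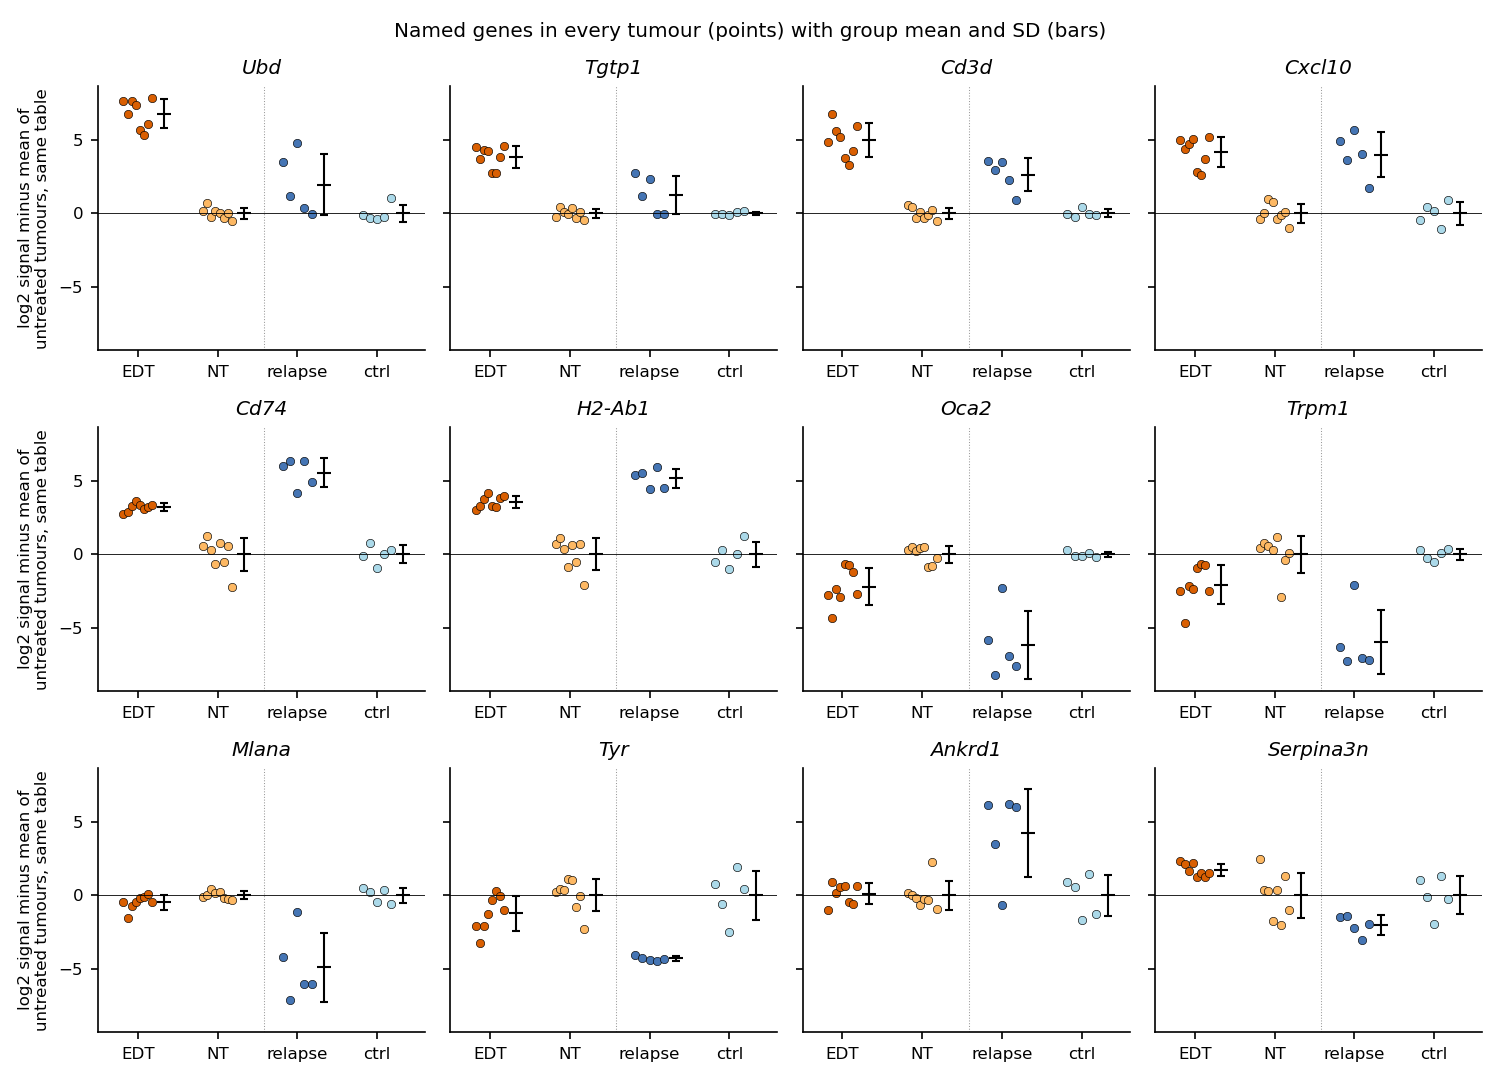
Log2 signal of 12 genes in every tumour, as the deviation from the mean of the untreated tumours of the same table (EDT left of NT, relapse left of ctrl), with group mean and SD. Ubd and Tgtp1 are high in all 8 EDT tumours and lie within the ctrl range in relapse 4 and 5, Cxcl10 and Cd74 are high in all 5 relapses, and Mlana and Tyr lie below every ctrl tumour in all 5 relapses.

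Genes outside the melanocyte list also fell late, and which cells made their RNA was not tested. Syt4, a synaptotagmin of secretory vesicles, had effects of 1.29 ± 0.71 and −5.30 ± 0.87, and its relapses, at 8.37, 6.11, 9.67, 7.57 and 6.51, were all below ctrl tumours at 14.51, 12.86, 10.31, 14.82 and 12.22. With slide as a fixed block its early effect was 3.52 and it was opposite. Pparg, the nuclear receptor of lipid storage and macrophage differentiation, had 0.46 ± 0.50 and −3.53 ± 0.48, and its relapse effect was −4.16 on slide 6 and −2.60 on slide 7. C4b and C4a, complement C4 and its close relative, whose similar sequences may share probe signal, had early effects of 0.49 ± 0.26 and 0.79 ± 0.30 and relapse effects of −2.77 ± 0.47 and −2.69 ± 0.52; under median centring both were opposite. Fos, an immediate early transcription factor, had 0.35 ± 0.28 and −1.79 ± 0.46. In the complement list 4 of 8 genes rose early (background 14.5%). At relapse 2 of the 8 rose and 3 fell (background 13.3% and 17.5%). Of 32 tested lysosome genes 14 fell and 5 rose at relapse (background 17.5% and 13.3%). Of the 32, 10 were late and fell (background 5.42%), such as the acid lipase Lipa (0.10 ± 0.17 and −1.53 ± 0.44). Another 2, Ctsa and Grn, were late and rose (background 3.8%). Under median centring 9 fell and 6 rose, and 3 of the 32 were late. The 4 probes of Ctsa had relapse effects from −0.86 to 2.21, and with the mean over probes Ctsa was undecided.

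Of the YAP and TEAD targets, which respond to cell stretch and attachment, 1 of 14 was late and higher and 1 late and lower (Ptpn14, a phosphatase), and of the fibroblast and matrix genes 3 of 36 were late and higher, against 3.8% (higher) and 5.42% (lower) of all genes. With the mean over probes Ptpn14 was undecided. Ankrd1, a stretch-responsive target of YAP, had signals of 5.04, 6.40 and 6.93 (lowest, median, highest) in EDT and 5.08, 5.79 and 8.30 in NT tumours. It stood at 12.22, 9.58, 5.37, 12.28 and 12.06 in relapses 1 to 5, against 6.98, 6.64, 4.36, 7.54 and 4.76 in ctrl tumours. All relapses except relapse 3 were above all ctrl tumours. The effects were 0.11 ± 0.39 and 4.25 ± 1.22, a difference of −4.14 ± 1.16 (adjusted p = 0.0176 by limma). Without relapse 3 the relapse effect was 5.48, and with slide as a fixed block the difference had an adjusted p of 0.089. The Ankrd1 promoter (chr19:36119795-36120094 of GRCm38.p6, minus strand) is shown for its TEAD motifs, 210 and 123 bases before the start.
Ankrd1: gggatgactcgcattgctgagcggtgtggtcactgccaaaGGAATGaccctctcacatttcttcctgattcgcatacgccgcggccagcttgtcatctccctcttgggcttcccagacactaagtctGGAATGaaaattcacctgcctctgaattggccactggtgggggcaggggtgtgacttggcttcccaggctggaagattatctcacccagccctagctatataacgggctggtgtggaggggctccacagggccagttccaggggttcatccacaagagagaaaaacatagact
The TEAD motif is short and was in 14.66% of all RefSeq promoters of this length, for 14.12% of the tested genes and for 14.43% of the late genes that rose.

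Htra1, a secreted serine protease that cleaves matrix proteins, averaged 8.01 ± 0.72 in EDT and 7.36 ± 0.27 in NT tumours, and stood at 11.07, 13.33, 6.66, 12.05 and 11.87 in relapses 1 to 5, against 6.13 to 7.14 in ctrl tumours. Its effects were 0.65 ± 0.25 and 4.36 ± 0.97, and the early effect passed the test under median centring and with the authors' values, which made Htra1 persistent there. With the mean over probes Htra1 was persistent as well. Ltbp1, which stores latent TGF beta in the matrix, had 0.04 ± 0.26 and 3.40 ± 0.56, with all 5 relapses above all ctrl tumours. Lamb1, a laminin chain, had 0.23 ± 0.23 and 2.37 ± 0.50, and Thbs1, thrombospondin, had 0.51 ± 0.24 and 2.13 ± 0.51. Thbs1 was undecided when each table kept its own spread. Axl, a receptor tyrosine kinase of dedifferentiated melanoma cells, was not late: it rose by 1.86 ± 0.31 early and 3.14 ± 0.46 at relapse. Nt5e, the ectoenzyme CD73, likewise rose by 2.17 ± 0.34 and 3.57 ± 0.71. The neural crest and dedifferentiation list had 19 tested genes, of which 6 rose and 1 fell early (background 14.5% and 15.1%). At relapse 7 rose and 1 fell (background 13.3% and 17.5%), with medians of 0.46 early and 1.05 at relapse. For 10 of the 19 neither effect nor the difference was called, and the same held for Ngfr, Aqp1 and Egfr. In the fibroblast and matrix list 8 of 36 genes rose in each comparison (background 14.5% early and 13.3% at relapse), with medians of 0.70 and 1.0. Of the 36, 3 were persistent and higher (Col5a1, Fn1, Mmp14), against 6.39% of all genes. Without relapse 3, 16 of the 36 rose at relapse and the median was 1.36. Of 14 tested YAP and TEAD targets, 4 rose and 1 fell early (background 14.5% and 15.1%), and 5 rose and 2 fell at relapse (background 13.3% and 17.5%), with medians of 0.30 and 0.82.

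Of 18 tested genes of amino acid stress and serine synthesis 2 were late and higher (Phgdh and Asns), and of 29 cell cycle genes 2 (Mcm3 and Kif23), against 3.8% of all genes. In the amino acid list 5 genes rose and 2 fell early (background 14.5% and 15.1%), and 3 rose at relapse (background 13.3%). Phgdh, the first enzyme of serine synthesis, averaged 7.64 ± 0.23 in EDT and 8.09 ± 0.63 in NT tumours, and stood at 9.90, 9.32, 8.10, 10.93 and 11.01 in relapses 1 to 5, against 5.54, 6.60, 7.05, 6.37 and 7.92 in ctrl tumours. Every relapse was above every ctrl tumour, relapse 3 by the least. The effects were −0.45 ± 0.22 and 3.16 ± 0.57, a difference of −3.61 ± 0.56 (adjusted p = 0.00044 by limma). Asns, asparagine synthetase, had 0.45 ± 0.18 and 2.09 ± 0.50 and was persistent under median centring and with the authors' values. The replication factor Mcm3 had 0.11 ± 0.19 and 1.22 ± 0.29, and the mitotic kinesin Kif23 had −0.46 ± 0.20 and 1.18 ± 0.31. The 3 probes of Kif23 had early effects from −0.46 to 0.39 and relapse effects from 0.43 to 1.18. With the mean over probes Kif23 was undecided. Of 29 tested cell cycle genes 4 rose early and 7 at relapse (background 14.5% and 13.3%), with medians of 0.07 and 0.57. The early share was near that of all genes. Under median centring 7 and 18 rose, with medians of 0.45 and 0.89, but more of all genes rose there as well. Cdkn2b, an inhibitor of CDK4 and CDK6, rose late (−0.20 ± 0.12 and 1.04 ± 0.26). Ccl17, a chemokine of dendritic cells for CCR4-bearing T cells, was not above background on any ctrl array and was at least 4.91-fold higher at relapse (adjusted p = 0.0184 by limma), with relapse 4 at 11.55 and the others between 5.59 and 7.52.

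The genes that fell only early changed less, and most depended on the scaling. Sema6d, a transmembrane semaphorin, was transient under all scalings used: its signals were 5.34, 6.15 and 6.40 (lowest, median, highest) in EDT and 6.95, 7.58 and 8.17 in NT tumours, and 6.02, 7.44, 6.28, 7.38 and 7.50 in relapses 1 to 5, against 5.95 to 7.23 in ctrl tumours. The EDT and NT tumours did not overlap, whereas the relapse and ctrl tumours did. The effects were −1.59 ± 0.18 and 0.51 ± 0.36, a difference of −2.10 ± 0.38 (adjusted p = 0.00118 by limma). Cdkn2a, which encodes the tumour suppressors p16 and p19ARF, had −1.35 ± 0.22 and −0.08 ± 0.24, but was undecided under median centring and with the authors' values. The 3 probes of Cdkn2a had early effects from −1.47 to −1.35 but relapse effects from −0.08 to 1.84. With the mean over probes Cdkn2a was transient. Tom1, an adaptor of endosomal sorting, had −1.11 ± 0.17 and 0.52 ± 0.28, and was opposite under median centring. Nsdhl, an enzyme of cholesterol synthesis, had −1.17 ± 0.27 and 0.48 ± 0.44, and its early effect of −0.78 did not pass under median centring. The 4 probes of Nsdhl had early effects from −1.31 to −0.92 and relapse effects from −0.77 to 0.48. With the mean over probes Nsdhl was undecided, and with slide as a fixed block neither effect nor the difference was called.

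Metabolic lists had small median effects, and their calls depended on the scaling. Of 16 tested cholesterol synthesis genes, 8 fell early and 2 at relapse (background 15.1% and 17.5%), with medians of −0.60 and 0.04. Under median centring none of the 16 fell early and 1 fell at relapse, with medians of −0.26 and 0.35. Of 49 tested oxidative phosphorylation genes, 28 fell early and 13 at relapse (background 15.1% and 17.5%), with medians of −0.38 and −0.37. Under median centring none of the 49 fell early and 4 fell at relapse, with medians of −0.06 and −0.18. Relative to the median of all genes, −0.05 as analysed and 0.29 under median centring, the early medians of both lists were lower under either scaling. At an unadjusted p below 0.05 in limma, median centring left 2 cholesterol genes and 0 oxidative phosphorylation genes lower early. Of 19 tested endothelial genes 7 fell early and 1 at relapse (background 15.1% and 17.5%), with medians of −0.55 and −0.22. Under median centring 1 of the 19 fell in each comparison. Met, the receptor of hepatocyte growth factor, fell early (−1.10 ± 0.26, adjusted p = 0.00388 by limma), while its relapse effect of −0.60 ± 0.29 did not pass and the difference was not called.

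The opposite class was small and depended on the scaling: under median centring 7 of its 28 genes that rose early and 0 of its 29 that fell early kept the class, and with the mean over probes 15 and 23 did. Serpina3n, a secreted inhibitor of granzyme B and other serine proteases, had signals of 12.69, 13.08 and 13.80 (lowest, median, highest) in EDT and 9.42, 11.79 and 13.94 in NT tumours. It stood at 10.32, 10.44, 9.59, 8.79 and 9.88 in relapses 1 to 5, against 12.88, 11.70, 9.85, 13.12 and 11.59 in ctrl tumours. Both pairs of groups overlapped. Its effects were 1.73 ± 0.51 (adjusted p = 0.016 by limma) and −2.02 ± 0.56 (adjusted p = 0.0182), a difference of 3.75 ± 0.82 (adjusted p = 0.00381). Med21, a subunit of the Mediator complex, had 1.02 ± 0.15 and −1.05 ± 0.27. Cd200, a membrane ligand that restrains myeloid cells, had 0.98 ± 0.26 and −1.41 ± 0.28, with all 5 relapses (7.24 to 7.71) below all ctrl tumours (8.27 to 9.83). Pycard, the inflammasome adaptor ASC, had 0.84 ± 0.23 and −1.22 ± 0.26, and Dusp2, a phosphatase of MAP kinases, had 0.62 ± 0.21 and −1.70 ± 0.42. Serpina3n, Med21, Cd200, Pycard and Dusp2 were opposite under median centring and with the authors' values as well, but with the mean over probes Pycard and Dusp2 were late and Cd200 transient. The other Pycard probe had effects of 0.07 and 0.09. Of the other higher genes named by size, Fxyd3, Eif4e3, Vwa5a and Osbpl8 were transient under median centring and Crls1 was undecided. Ccng1, a target of p53, had 0.56 ± 0.13 and −0.83 ± 0.26, and was transient under median centring and with the mean over probes. The 3 probes of Ccng1 had relapse effects from −0.83 to 0.41.

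In the reverse direction, Tecr, an enzyme of very long chain fatty acid synthesis, had effects of −0.78 ± 0.14 and 0.94 ± 0.25, and Gsto2, a glutathione transferase, of −0.78 ± 0.20 and 1.70 ± 0.53. Snrnp70, a protein of the U1 small nuclear ribonucleoprotein, had −0.68 ± 0.14 and 1.30 ± 0.36, and Pea15a, an adaptor of ERK signalling, had −0.60 ± 0.17 and 1.37 ± 0.38. All 4 were late under median centring, where their early falls did not pass the test. With slide as a fixed block Tecr was late and Gsto2 opposite. The 3 probes of Tecr had relapse effects from 0.19 to 0.94, and with the mean over probes Tecr was transient.

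Markers of tissue around the tumours varied as well. The skeletal muscle list (16 genes) and the erythroid list (6 genes) had no gene called in either comparison by limma; at an unadjusted p below 0.05, 1 muscle gene was higher at relapse, and 1 erythroid gene was higher and 1 lower. Of 9 tested keratinocyte genes none was called early and 3 rose at relapse (background 13.3%). Keratinocyte scores were −2.15 to 4.36 in EDT and −2.42 to 3.53 in NT tumours. They were −0.98 to 4.41 in relapse and −1.55 to 1.33 in ctrl tumours. The part of these tissue markers in the results above was not tested. Cyp4b1, a cytochrome P450 of lipid metabolism, fell by similar amounts in both comparisons (−3.62 ± 0.57 and −3.50 ± 0.64), with relapse 3 at 8.61 and the other relapses at 4.89 to 5.19.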

How the data were processed

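Per the labels' protocols, RNA from frozen HCmel3 tumours was amplified and hybridised to Illumina Mouse WG6 v2.0 BeadChips. Per the file headers, the deposited tables hold for each probe a mean bead signal (an intensity that the authors neither background-corrected nor normalised) and a detection p-value, and the second table also a bead count and a bead standard error, which is a deposited signal value; neither was used. The authors also deposited log2 values with an unstated normalisation, used as an alternative. Scanner software was not given in the sources used here, and why the second table's titles say re-analyzed is not stated.

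Each table was normalised on its own by limma's neqc function (version 3.58.1; R 4.3.3), which applied normexp, the negative controls being estimated out of the detection p-values, then quantile normalisation, with an offset of 16. Dropped from the first table were 4 probes with faulty p-values. Of 45260 shared probes, 34871 had 1 gene symbol in GEO's platform annotation, 18 several and 10371 none. A probe passed with a detection p below 0.01 on at least 5 arrays of a group, and the brightest passing probe stood for its gene (9553 genes, 3463 with several probes). The early effect came from a linear model of the first table, the relapse effect from the second and the difference from a joint fit of 26 arrays, each with lmFit and eBayes. Their number limits the precision, and detected probes per array ran from 15008 to 16830 in EDT, 14064 to 16312 in NT, 15992 to 18323 in relapse and 14545 to 17033 in ctrl tumours. On simulated data the joint fit made a larger share of false difference calls than its threshold allows. The share fell but stayed above the threshold when each table kept its own spread. Most small relapse-only changes did not reach the right class.

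Named genes were, for each class and direction, the 10 of largest size detected on every array of the brighter group, up to 4 members of each gene list by difference and 2 by relapse effect, and a fixed set of melanoma and immune genes; a gene that completes a count of 5 or fewer is also named. The comparison and the gene lists were chosen with earlier results of these data known. Promoters came from RefSeq (GRCm38.p6), which held none for some genes. Alternatives covered background correction, normalisation, probe filter and summary, slide, array weights, thresholds, a replicate block and leaving out each tumour.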

Additional observations from a re-analysis of the deposited data

Results flagged for a closer look

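The effects of treatment early and at relapse differed for 1582 of 9553 genes by the test of the difference itself; persistent genes need not be among them, and 181 of them were called in neither comparison alone. Single tumours far from the rest of their group were looked for with Dixon's test in 320 groups of values (44 genes and 36 list scores), of which 24 (7.5%) had one. Chance alone gives about 1 group in 20.

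Relapse 3 was far from the other relapses for 7 of these values. It was highest for Trpm1 (9.70, next 5.48), Cyp4b1 (8.61, next 5.19), the pseudogene Cyp4b1-ps2 (9.52, next 5.90) and Tbx4 (6.04, next 4.65), and lowest for Axl (12.1, next 13.9), the macrophage and monocyte score (0.98, next 1.91) and the YAP and TEAD score (−0.14, next 1.03). Relapse 1 was lowest for S100a8 (5.97, next 12.6) and S100a9 (4.65, next 10.7). Ctrl 5 was highest for Ubd (6.02, next 4.90), Cxcl9 (10.6, next 6.80) and Cd3g (4.89, next 4.41).

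In the first table, EDT 2 was lowest for Tyrp1 (12.7, next 13.8) and Trpm1 (7.06, next 9.23), and EDT 5 was highest for Cyp4b1 (8.55, next 6.29) and Cyp4b1-ps2 (9.01, next 6.70). NT 6 was lowest for Rab38 (11.4, next 12.5), Trpm1 (8.86, next 11.4) and the metallothionein score (−0.25, next −0.02), and highest for Ngfr (8.17, next 5.93) and Prkg2 (11.8, next 8.87). NT 7 was highest for Ankrd1 (8.30, next 6.20). NT 4 was lowest for Tyrp1 (14.2, next 14.4) and highest for Il1b (7.54, next 5.80). Gene values are log2 signals and scores are log2 deviations from the untreated mean of the same table.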

How the results depend on the processing

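The main counts were 2831 genes early, 2944 at relapse, 1582 by the difference, 283 transient, 1244 persistent, 881 late and 57 opposite. Median centring gave 647 by the difference, 125 transient (122 higher, 3 lower), 407 late and 22 opposite (20 and 2), and its early calls were 2275 higher and 174 lower, its relapse calls 2086 and 656, its persistent calls 1071 and 100. With the authors' values early calls were 1747 higher and 756 lower, relapse calls 1536 and 1314, transient 217 and 41, persistent 767 and 344, and opposite 36 and 14. Slide as a fixed block gave 1045 early, 844 by the difference, 124 transient, 530 persistent (358 and 172), 575 late and 36 opposite. Slide 5 alone, with fewer arrays, gave 480 early (410 and 70), 76 by the difference, 11 transient (10 and 1), 315 persistent (283 and 32), 54 late and 9 opposite. Slide 6 alone gave 568 at relapse (329 and 239), 264 by the difference (123 and 141), 69 transient, 420 persistent (279 and 141), 61 late and 0 opposite (62 at an unadjusted p below 0.05 in limma), and slide 7 alone 95 opposite. An adjusted p of 0.01 gave 1587 early, 1364 at relapse, 519 by the difference, 76 transient, 517 persistent (313 and 204), 288 late and 2 opposite. A 2-fold minimum gave 854 early (650 and 204), 1831 at relapse, 93 transient (83 and 10), 531 persistent (379 and 152) and 2 opposite. Opposite genes numbered 30 with no detection filter and 144 with array weights, and were 20 higher and 41 lower with the mean over probes; persistent genes detected on all 26 arrays were 323 and 527. For median centring, the slide block and array weights the cause was not tested. Leaving out each tumour in turn gave 2340 to 3099 genes early, 2125 to 3943 at relapse, 1035 to 2497 by the difference, 191 to 315 transient, 1012 to 1446 persistent, 520 to 1478 late and 27 to 97 opposite. When each table kept its own spread, an alternative added after seeing the data, 1143 genes met the difference (1116 of them among the 1582), 207 were transient (199 shared) and 693 late (679 shared). With the replicate number as a block, counts were 2514 early, 3117 at relapse, 1564 by the difference, 226 transient, 1213 persistent, 930 late and 50 opposite. Correlations of same-numbered deviations ran from −0.0526 to 0.18 for EDT with NT and from −0.0573 to 0.344 for relapse with ctrl, with 1 of 8 and 3 of 5 pairs (relapse and ctrl 1, 2 and 3) over 0.1, the same ones that correlated best with their own number. Not every pair passed, so the numbers were not taken as a pairing. Over all named genes, 26376 alternative values kept direction and side of the threshold, 489 newly passed and 1341 no longer passed. No called value changed sign, whereas 405 values that passed neither way did, such as the relapse effect of Ubd on slide 7. Signals near the top or bottom of the scale may limit both effects.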

Other observations

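Among the persistent genes that fell and were named by size, Brca1, a DNA repair protein, fell by 2.43 on the log2 scale early (SE 0.52) and by 3.28 at relapse (SE 0.36), and Fabp3, a fatty acid-binding protein, fell by 2.45 (SE 0.26) and by 2.47 (SE 0.86). Prss12, a secreted serine protease, fell by 2.58 (SE 0.44) and by 3.36 (SE 0.48), and Gstp2, a glutathione transferase, fell by 2.42 (SE 0.47) and by 2.80 (SE 0.53). Car14, a carbonic anhydrase, fell by 2.41 (SE 0.47) and by 4.37 (SE 0.95), with relapse 3 at 10.70 and the other relapses at 4.81 to 6.67. None of the 5 differences of effects passed the test. Fas, a death receptor, rose by 2.01 ± 0.31 early and 1.70 ± 0.32 at relapse, and the relapses (6.66 to 7.67) were all above the ctrl tumours (4.76 to 6.29).

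Among the late genes named by size, Rin1, an exchange factor for RAB5, stood at 8.89, 9.23, 5.86, 9.36 and 9.12 in relapses 1 to 5, against 4.80 to 5.76 in ctrl tumours, and its effects were 0.14 ± 0.18 and 3.17 ± 0.58. Arhgap22, which inactivates RAC1, stood at 9.40, 9.66, 6.15, 9.89 and 10.03, against 5.12 to 6.57, with effects of 0.40 ± 0.26 and 3.15 ± 0.65. Relapse 3 was the lowest relapse for both. In the other direction Azgp1, a lipid-mobilising glycoprotein, had effects of −0.95 ± 0.40 and −4.31 ± 0.29, and Rnase1, a secreted ribonuclease, of −1.03 ± 0.54 and −4.06 ± 0.35. For these genes relapse 3, at 4.70 and 5.71, lay among the other relapses. Among lipid genes, Lpl, lipoprotein lipase, and Fabp5, a fatty acid-binding protein, were transient, with early effects of 1.24 ± 0.32 and 1.43 ± 0.30 and relapse effects of −0.44 ± 0.34 and −0.13 ± 0.27.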
